A study of Mus musculus with 12 samples.

Results

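Cadherins and protocadherins are the calcium-dependent adhesion receptors of neurons, and 87 of the 32546 genes counted in hippocampal tissue by photo-isolation chemistry (PIC) belong to them. The 87 are all genes of the count table whose symbol begins with Cdh and a digit or with Pcdh, antisense transcripts left out. In PIC, RNA of the whole section is copied into cDNA from photo-caged primers, light then uncages the cDNA of a chosen area, and that cDNA alone is amplified and sequenced, here with a library method that reads the 3′ ends of transcripts and counts unique molecular identifiers (UMIs). All samples were from the hippocampus of male ICR mice aged 8 weeks, without any genetic change, and the areas were the pyramidal fields CA1 and CA3 and the dentate gyrus (DG). The area called CA3 here, as in the sample titles, is called CA2 in the description of the series.

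The 4 histological conditions were fresh frozen tissue permeabilized with 0.1 N HCl for 5 min (fresh HCl), fresh frozen tissue heated in TE buffer of pH 8.0 at 70 °C for 1 h (fresh TE), tissue fixed with 4% PFA before freezing and treated with the same TE step (fixed frozen), and 4% PFA-fixed tissue in paraffin with that TE step (paraffin). All slides were briefly post-fixed with 4% PFA before permeabilization, so fresh here means not fixed before freezing. Each of the 12 combinations of region and condition was 1 library of 4 barcoded replicates. Within a condition, region and library cannot be told apart, and between conditions each region is 1 library per condition. The methods of the study call the replicates biological, and the labels do not say which animal gave which, so p-values measure the spread between these replicates. Totals per replicate ranged from 35932 to 1111804 UMIs, with medians of 731106.5, 629964.5, 122520.5 and 67528 in fresh HCl, fresh TE, fixed frozen and paraffin tissue (n = 12 each). The summed level of 6 CA1 markers was higher in every CA1 replicate than in any CA3 or DG replicate of the same condition, and the same held for 6 CA3 markers in CA3 and 8 DG markers in DG, although the CA3 marker Iyd was at 0 in CA1 in every condition and also in CA3 of paraffin tissue. The summed level of 4 CA2 markers had its highest mean in DG, not in CA3, in all 4 conditions, a sum that does not show each marker. The CA2 marker Map3k15 was at 0 in all regions of fixed frozen and paraffin tissue and in CA1 of fresh TE. The summed level of 4 markers of choroid plexus and ependyma was uneven among replicates, from 0 to 8928 CPM (UMIs scaled to a replicate total of 1000000).

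Classical cadherins bind like molecules on the opposite membrane through their extracellular repeats, and catenins tie their cytoplasmic tails to actin. Type II cadherins are expressed in patterns that differ from one group of neurons to the next, and in the hippocampus Cdh6, Cdh9 and Cdh10 are known for their roles at synapses of particular fields. The non-clustered protocadherins fall into delta-1 and delta-2 groups, which bind weakly and signal to the actin cytoskeleton, while the alpha, beta and gamma protocadherins are encoded in 3 neighbouring gene clusters and give single neurons an identity by the mixture that each expresses.

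Of the 87 members, 60 had at least 10 UMIs in the 48 replicates together and 27 had fewer. The totals ran from 1 to 9035 UMIs with a median of 77. By role, the 4 delta-1 protocadherins held 14837 UMIs, the 5 delta-2 protocadherins 12292, the 13 type II cadherins 10631, the 3 other non-clustered protocadherins 4280, the 21 beta protocadherins 4125, the 5 type I cadherins 2003, the 4 other cadherins 1366, the 20 gamma protocadherins 731 and the 12 alpha protocadherins 50. The most abundant member in total UMIs was Pcdh9, with 9035. Since the library reads 1 end of each transcript, the counts are of captured 3′ ends and were not divided by gene length.

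The promoters of 5 members whose levels differed between regions are printed here, since they are the letters upstream of the genes on which the region results turn. They are RefSeq windows on GRCm38.p6 of 250 bases before and 50 after a start site, 5′ to 3′ on the strand of the gene, and 10 of the 13 members described in full below have an entry. Capitals mark motifs found by a search of both strands for the core of the CRE, TGACG, which also lies within the full CRE, TGACGTCA, for the GC box, GGGCGG, for the TATA box, TATAAA, for the CCAAT box, CCAAT, and for an E-box, CACGTG. A match on the other strand appears as its reverse complement.
Cdh6, chr15:13173626-13173925, minus strand: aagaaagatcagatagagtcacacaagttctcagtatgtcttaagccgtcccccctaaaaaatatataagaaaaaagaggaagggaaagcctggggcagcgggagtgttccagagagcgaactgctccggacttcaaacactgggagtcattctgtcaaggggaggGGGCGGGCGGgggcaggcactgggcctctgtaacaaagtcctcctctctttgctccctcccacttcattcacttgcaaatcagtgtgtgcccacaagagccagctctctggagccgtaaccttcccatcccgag
Cdh9, chr15:16728665-16728964, plus strand: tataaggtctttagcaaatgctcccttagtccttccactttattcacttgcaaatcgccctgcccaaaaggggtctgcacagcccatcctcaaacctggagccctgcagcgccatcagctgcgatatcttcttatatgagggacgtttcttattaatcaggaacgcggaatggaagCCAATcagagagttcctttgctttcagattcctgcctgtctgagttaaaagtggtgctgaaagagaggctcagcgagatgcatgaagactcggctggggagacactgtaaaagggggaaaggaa
Pcdh8, chr14:79771263-79771562, minus strand: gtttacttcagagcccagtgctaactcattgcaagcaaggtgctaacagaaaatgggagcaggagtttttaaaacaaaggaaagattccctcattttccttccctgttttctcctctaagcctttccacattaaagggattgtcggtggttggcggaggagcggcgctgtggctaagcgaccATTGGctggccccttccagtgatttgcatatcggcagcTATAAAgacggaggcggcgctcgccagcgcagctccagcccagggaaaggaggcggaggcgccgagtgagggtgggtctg
Pcdh10, chr3:45378148-45378447, plus strand: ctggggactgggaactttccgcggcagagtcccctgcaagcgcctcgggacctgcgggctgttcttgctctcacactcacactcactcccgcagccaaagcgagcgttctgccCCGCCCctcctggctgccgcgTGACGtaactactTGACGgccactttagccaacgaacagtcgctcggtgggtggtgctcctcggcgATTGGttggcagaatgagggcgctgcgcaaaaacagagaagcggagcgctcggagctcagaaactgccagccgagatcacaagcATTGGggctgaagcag
Pcdh17, chr14:84443313-84443612, plus strand: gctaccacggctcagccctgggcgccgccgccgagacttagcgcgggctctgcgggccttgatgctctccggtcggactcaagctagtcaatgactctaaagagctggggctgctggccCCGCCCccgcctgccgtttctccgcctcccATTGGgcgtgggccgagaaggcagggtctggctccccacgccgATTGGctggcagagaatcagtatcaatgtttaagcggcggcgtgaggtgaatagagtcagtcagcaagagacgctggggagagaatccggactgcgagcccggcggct
The Cdh6 window held 2 overlapping GC boxes, the Cdh9 window 1 CCAAT box, and the Pcdh8 window 1 TATA box and 1 CCAAT box. Pcdh10 had 2 CRE cores, 1 GC box and 2 CCAAT boxes, and Pcdh17 had 1 GC box and 2 CCAAT boxes. Among all 32851 windows of this length in the table, 20.8% held a CRE core, 1.79% the full site, 35.7% a GC box, 13.6% a TATA box, 37.4% a CCAAT box and 7.15% the E-box. These matches describe the letters only.

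The next comparisons asked which members differed between CA1, CA3 and DG within a condition. Unless said otherwise, values are CPM in replicates 1 to 4, differences are log2 fold changes ± SE, and called means an adjusted p under 0.05 in edgeR's quasi-likelihood test (Benjamini-Hochberg over all genes tested, 4 replicates a group). In bulk tissue, fewer cells of a type and less RNA per cell cannot be told apart.

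Against DG, CA1 was called higher for 6 and lower for 6 of 51 members tested in fresh HCl tissue, where 8.61% of all genes were higher and 8.35% lower. In fresh TE tissue the counts were 6 and 6 of 48 members (5.15% and 4.99% of all genes), in fixed frozen tissue 1 and 4 of 28 (3.36% and 4.78%), and in paraffin 0 and 2 of 28 (0.87% and 2.42%). Against DG, CA3 was called higher for 4 and lower for 3 of 50 members in fresh HCl (4.46% and 4.53% of all genes), 5 and 3 of 49 in fresh TE (4.35% and 3.56%), 3 and 3 of 26 in fixed frozen (4.29% and 4.98%), and 1 and 0 of 29 in paraffin (1.93% and 1.28%). Between CA1 and CA3, CA1 was called higher for 3 and lower for 6 of 50 members in fresh HCl (4.07% and 5.06% of all genes), 2 and 2 of 53 in fresh TE (1.99% and 2.41%), 3 and 3 of 20 in fixed frozen (3.34% and 3.86%), and 0 of 18 in paraffin (0.64% and 1.72%), where 5 members had an unadjusted p under 0.05 in edgeR and DESeq2 called 0. The median difference of the tested members lay between -0.13 and 0.12 in the 6 comparisons of fresh tissue. In fixed frozen tissue it was -0.64 for CA3 over DG, where the median of all genes was -0.09. Calls of fixed tissue depended on the tool, as did some of fresh tissue. In fresh HCl, DESeq2 did not call Pcdh10 between CA1 and DG (adjusted p = 0.123) nor Pcdh1 between CA1 and CA3 (adjusted p = 0.0608). It gave no adjusted p for Cdh3 between CA3 and DG in both fresh conditions, nor for Cdh18 between CA1 and CA3 of fresh HCl. Of the 6 fixed frozen calls between CA1 and CA3, DESeq2 kept that of Cdh6, did not call Cdh2, Pcdh8, Pcdh17 and Pcdh19 (adjusted p from 0.0822 to 0.208) and gave no adjusted p for Cdh9. In the same tissue it did not call Cdh6 and Cdh8 between CA1 and DG (adjusted p = 0.0529 and 0.19) nor Pcdh1 and Pcdh19 between CA3 and DG (adjusted p = 0.0533 and 0.21), and in paraffin it did not call Pcdh20 between CA1 and DG and gave no adjusted p for Pcdh8 and Cdh24.

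By role, the calls were uneven. Between CA1 and DG of fresh HCl tissue, 8.61% of all genes were called higher and 8.35% lower in CA1. There 6 of 13 tested type II cadherins, 4 of 5 delta-2 protocadherins and both tested other non-clustered protocadherins differed. Of 19 tested beta protocadherins, edgeR called 0, with 1 at an unadjusted p under 0.05, and DESeq2 called 0. Count depth differed too, with median totals over the 48 replicates of 247, 3060 and 162 UMIs for type II cadherins, delta-2 and beta protocadherins. Its part in the uneven calls was not tested. The only clustered protocadherin called between regions without a replicate block was Pcdhb2, in fresh TE. Altogether 13 members were called in the same direction for the same pair of regions in at least 2 conditions, and these are described first, in the order of their roles.

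**Figure D1:**
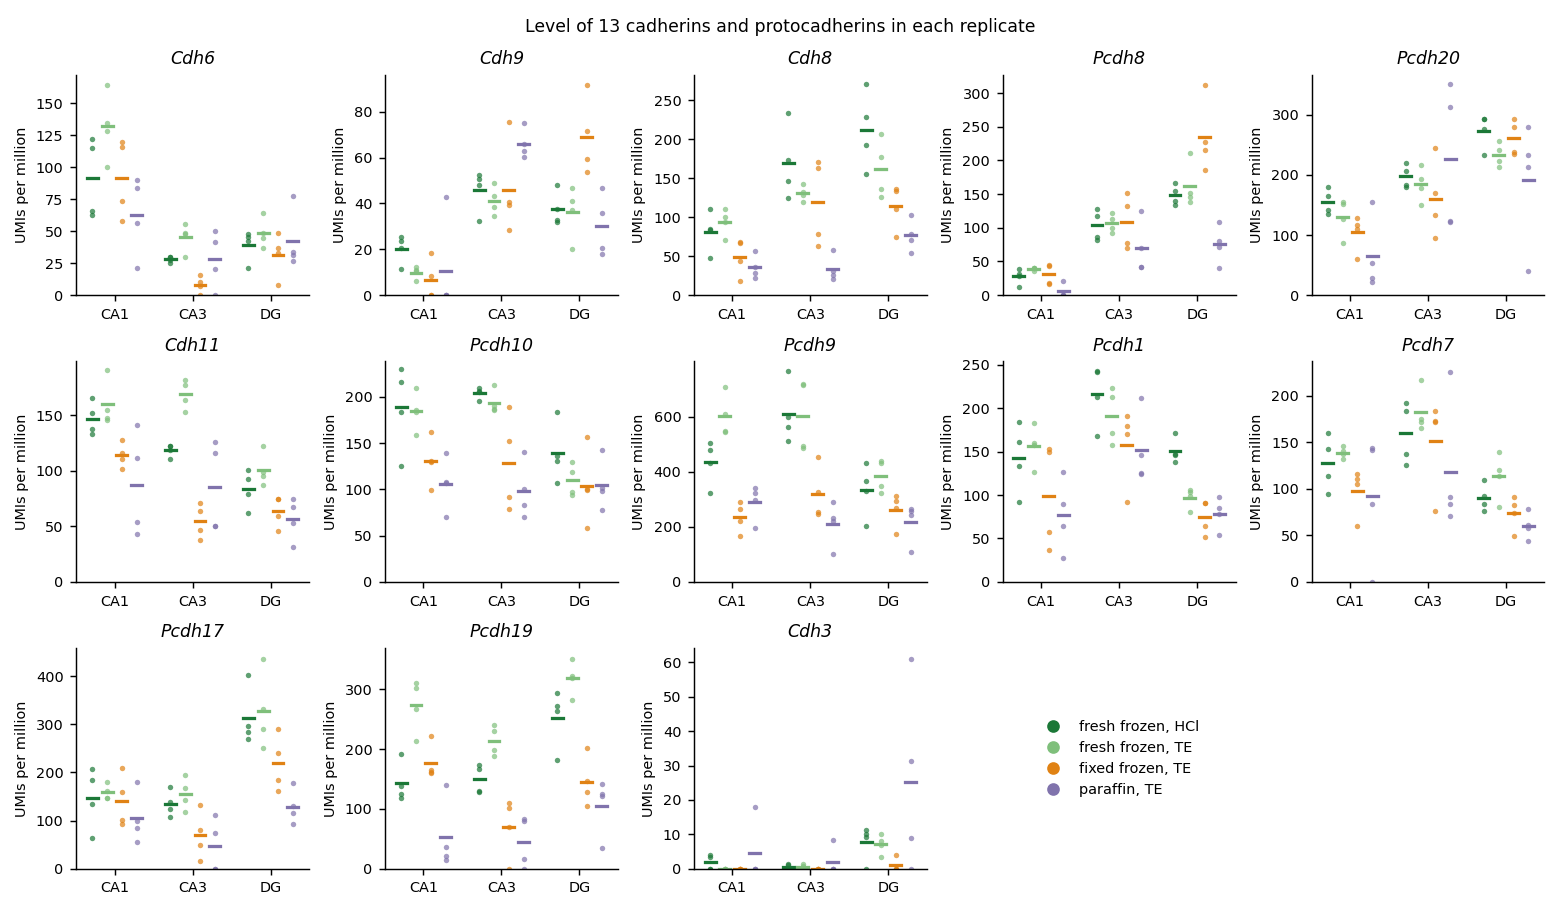
CPM of the 13 members in each replicate, by region on the x axis and by condition in colour, with a bar at the mean of 4 replicates; the y axes start at 0 and differ between panels. By its mean Cdh6 stood highest in CA1, Pcdh8 and Cdh9 stood lowest in CA1, and Pcdh17 stood highest in DG in all 4 conditions.

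Cdh3 (P-cadherin, a type I cadherin best known from epithelia; chr8:106510891-106557297 on GRCm38) was a low transcript of DG. Its CPM in DG were 11.3, 9.31, 10.2 and 0 in fresh HCl and 8.13, 6.82, 10.1 and 3.4 in fresh TE. In CA3 they were 0, 1.07, 0 and 1.37 and 1.47, 0.899, 0 and 0. DG and CA3 were apart in fresh TE and overlapped in fresh HCl, where DG replicate 4 was at 0. Cdh3 was near the limit of counting outside DG, with 2 UMIs in CA3 of each fresh condition and 0 in CA1 of fresh TE. Of its 25 UMIs in fresh HCl, 18 were in DG and 2 in CA3. The rest were in CA1, which overlapped DG there and was not called different from it. Pooled over replicates, DG exceeded CA3 by 15.2-fold (95% exact interval 3.63 to 135) in fresh HCl (adjusted p = 0.00696) and by 12.3-fold (95% exact interval 2.87 to 111) in fresh TE (adjusted p = 0.0103), intervals that cover counting error only. DESeq2 gave no adjusted p for either comparison. Over CA1 of fresh TE, DG was at least 6.72-fold higher, with 3 counts over the 4 replicates as the limit that 0 UMIs allow (adjusted p = 0.00155). In paraffin 17 of the 19 UMIs were in DG, and fixed frozen tissue held 1 UMI in all. The summed level of choroid plexus and ependyma markers had means of 1860, 588 and 140 CPM in DG, CA3 and CA1 of fresh TE. In fresh HCl the means were 720, 256 and 1041 CPM, highest in CA1. The part of these cells in the level of Cdh3 was not tested.

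Cdh6 (ENSMUSG00000039385, chr15:13028701-13173675), a type II cadherin, was the member of CA1. Its CPM in CA1 were 65.7, 115, 122 and 62.9 in fresh HCl, 129, 164, 100 and 135 in fresh TE and 57.9, 116, 119 and 73.8 in fixed frozen tissue. CA3 held 24.7, 30, 29.6 and 27.4, 29.5, 47.7, 55.8 and 48.9 and 10.2, 7.06, 15.7 and 0 in the same conditions. In DG the values were 45.4, 48.1, 41.9 and 20.9, 36.6, 44.3, 48.6 and 64.5 and 7.45, 48.8, 33 and 36.7. Every CA1 replicate was above every CA3 and DG replicate in these 3 conditions, and the ranges overlapped only in paraffin. CA1 exceeded CA3 by 1.73 ± 0.24 (adjusted p = 5.67e-06), 1.51 ± 0.21 (adjusted p = 2.09e-05) and 3.20 ± 0.63 (adjusted p = 2.44e-05). Over DG the differences were 1.22 ± 0.26 (adjusted p = 0.000624), 1.51 ± 0.22 (adjusted p = 3.53e-06) and 1.46 ± 0.40 (adjusted p = 0.00589). CA3 and DG overlapped in all 4 conditions, so the order of levels was CA1 above both others, which did not separate. The fixed frozen call over DG was lost without CA1 replicate 2 (then 1.35).

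Cdh9 (chr15:16728756-16857094), a type II cadherin known for the specificity of DG to CA3 synapses, had the opposite pattern. Its CPM in CA1 were 20.5, 11.5, 25.3 and 23.6 in fresh HCl, 10.3, 6.03, 12.2 and 10.8 in fresh TE and 0, 0, 8.53 and 18.4 in fixed frozen tissue. CA3 had 52.5, 32.1, 48.1 and 50.6, 38.3, 43.2, 34.3 and 48.9 and 40.7, 28.2, 39.1 and 75.8. DG had 48.2, 32.6, 31.7 and 37.7, 46.8, 40.9, 20.1 and 37.4 and 59.6, 71.6, 53.6 and 91.7. CA1 was below CA3 in every replicate of all 4 conditions, and below DG in all but paraffin, while CA3 and DG overlapped in all but paraffin. The difference of CA1 from CA3 was -1.25 ± 0.29 (adjusted p = 0.00427) in fresh HCl and -2.05 ± 0.30 (adjusted p = 5.39e-05) in fresh TE. With 2 UMIs in CA1 of fixed frozen tissue, CA3 was 8.52-fold (95% exact interval 2.02 to 76) higher there (adjusted p = 0.0272) and DG 14.1-fold (95% exact interval 3.71 to 119) higher (adjusted p = 2.33e-05). In fresh TE, CA1 differed from DG by -1.82 ± 0.36 (adjusted p = 0.000379). The fixed frozen call against CA3 was lost without CA1 replicate 1 or 2 or CA3 replicate 1 or 4 (then -2.85 to -2.16), fitted values that rest on the few UMIs of CA1.

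Cdh8 (chr8:99024471-99416471), another type II cadherin, was lowest in CA1 in fresh tissue. Its CPM in CA1 were 84.8, 109.8, 82.8 and 47.1 in fresh HCl, 99.9, 93.4, 111 and 70.2 in fresh TE and 43.5, 66.3, 68.2 and 18.4 in fixed frozen tissue. In DG they were 193, 228, 270.3 and 155, 126, 177, 206 and 136 and 74.5, 134, 136 and 110.1. CA1 and DG did not overlap in these 3 conditions. CA1 was lower than DG by log2 values of -1.32 ± 0.21 (adjusted p = 6.54e-06), -0.75 ± 0.19 (adjusted p = 0.00539) and -1.11 ± 0.35 (adjusted p = 0.0255). CA3, at means of 169 ± 47.2 and 131 ± 9.82 CPM (SD, n = 4) in fresh HCl and fresh TE, stood between them and overlapped DG. CA1 was called lower than CA3 in fresh HCl, at -1.02 ± 0.21 (adjusted p = 0.00116), and in fresh TE only with the replicate number as a block, at -0.47 ± 0.15 (adjusted p = 0.0269). The fixed frozen call against DG was lost without CA1 replicate 1, 2 or 4 or DG replicate 2 or 3 (then -1.27 to -0.93).

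Cdh11 (chr8:102632095-102785642), a type II cadherin of mesenchyme and brain, was lowest in DG in fresh tissue. Its CPM in DG were 79.5, 62, 92.7 and 100.5 in fresh HCl and 87.4, 98.8, 122 and 95.1 in fresh TE. CA1 had 133, 138, 152 and 165 and 155, 148, 190.4 and 146. CA3 had 122, 110.3, 122 and 119 and 177, 153, 164 and 182. Both pyramidal fields were above DG in every replicate of both fresh conditions. CA1 exceeded DG by 0.81 ± 0.21 (adjusted p = 0.00424) and 0.68 ± 0.18 (adjusted p = 0.008). CA3 exceeded DG by 0.78 ± 0.17 (adjusted p = 0.00341) in fresh TE and, with the replicate block, by 0.56 ± 0.16 (adjusted p = 0.0035) in fresh HCl, where the call was absent without it. In fixed frozen tissue the mean was lowest in CA3, at 54.9 CPM, against 63.7 in DG and 114 in CA1.

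Pcdh7 (a delta-1 protocadherin; chr5:57717967-58133230) was highest in CA3. Its CPM in CA3 were 137, 192, 184 and 126 in fresh HCl, 175, 166, 217 and 172 in fresh TE and 173, 184, 172 and 75.8 in fixed frozen tissue. In DG they were 76.6, 83.8, 109 and 92.1, 119.9, 114, 80.5 and 139 and 74.5, 48.8, 82.5 and 91.7. The groups did not overlap in fresh tissue, and in fixed frozen tissue CA3 replicate 4 fell into the range of DG. CA3 exceeded DG by 0.83 ± 0.19 (adjusted p = 0.00409), 0.76 ± 0.18 (adjusted p = 0.00585) and 1.19 ± 0.31 (adjusted p = 0.0024). CA1, at 128 ± 29.3 and 139 ± 5.65 CPM (SD, n = 4) in fresh HCl and fresh TE, lay between CA3 and DG and was called different from neither, although its replicates were apart from those of CA3 in fresh TE. The fresh TE call of CA3 over DG was lost without DG replicate 3 (then 0.61).

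Pcdh9 (chr14:93013410-93890679), the delta-1 protocadherin with the most UMIs, was also lowest in DG in fresh tissue. Its CPM in DG were 329, 431, 367 and 201 in fresh HCl and 323, 431, 438 and 346 in fresh TE. CA3 had 561, 596, 767 and 510.1 and 485, 714, 719 and 494. CA1 had 431, 479, 503 and 322 and 549, 706, 609 and 545. CA3 was above DG in every replicate of both conditions, by 0.87 ± 0.18 (adjusted p = 0.0016) and 0.70 ± 0.16 (adjusted p = 0.00339). CA1 exceeded DG in fresh TE by 0.67 ± 0.15 (adjusted p = 0.00148). In fresh HCl its mean was also above that of DG, at 434 against 332 CPM, without a call, and CA1 was below CA3, at -0.51 ± 0.16 (adjusted p = 0.0371). That last call was lost without CA1 replicate 1, 2, 3 or 4 or CA3 replicate 1, 2 or 3 (then -0.55 to -0.37) and with scaling factors computed from abundant genes alone, at -0.41 (adjusted p = 0.0998).

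Pcdh1, a delta-1 protocadherin of epithelia and neurons, was highest in CA3. Its CPM in CA3 were 242, 168, 243 and 213 in fresh HCl, 158, 223, 172 and 213 in fresh TE and 91.7, 191, 180 and 170.5 in fixed frozen tissue. DG had 148, 138, 146 and 172, 104, 80.1, 99 and 105 and 52.2, 91.2, 90.8 and 64.2. The regions separated in fresh TE and fixed frozen tissue, and in fresh HCl 1 CA3 replicate, at 168, lay within the range of DG. CA3 exceeded DG by 0.57 ± 0.16 (adjusted p = 0.0268), 1.04 ± 0.18 (adjusted p = 0.000172) and 1.02 ± 0.30 (adjusted p = 0.0112). CA1 had 185, 161, 92 and 134 in fresh HCl and 126, 159.7, 158 and 184 in fresh TE. It was lower than CA3 in fresh HCl, at -0.65 ± 0.19 (adjusted p = 0.0297), and higher than DG in fresh TE, at 0.72 ± 0.19 (adjusted p = 0.00748). The call of CA3 over DG was lost without CA3 replicate 1 or 3 or DG replicate 2 or 3 (then 0.52 to 0.57) in fresh HCl and without CA3 replicate 2 or 3 (then 0.88 to 0.91) in fixed frozen tissue, and that of CA1 below CA3 without CA1 replicate 3 or CA3 replicate 1 or 3 (then -0.58 to -0.42), with DESeq2 (adjusted p = 0.0608) and with factors from abundant genes, at -0.55 (adjusted p = 0.0682).

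Beside these 3 delta-1 protocadherins stand the markers of oligodendrocytes, since all 6 were higher in CA1 and in CA3 than in DG in both fresh conditions. Their summed level in fresh TE ranged from 5836 to 10113 CPM in CA1, from 5440 to 7332 in CA3 and from 2522 to 3369 in DG. In fresh HCl the ranges were 9106 to 18467, 6907 to 9942 and 3293 to 5325. Their part in the higher levels of delta-1 protocadherins, and in those of the other members described here as higher in CA1 or CA3 than in DG (Cdh2, Cdh6, Cdh10, Cdh11, Cdh13, Cdh20, Cdh24, Pcdh10 and Pcdh15), was not tested. Of 6 astrocyte markers, 4 were lower in CA3 than in DG in fresh TE and 2 in fresh HCl.

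Pcdh8 (ENSMUSG00000036422, chr14:79766775-79771312), the delta-2 protocadherin also called Arcadlin and known to be induced by neuronal activity, was lower in CA1 than in DG in all 4 conditions. Its CPM in CA1 were 28.7, 31.1, 11.5 and 39.3 in fresh HCl, 35.6, 40.7, 40.5 and 40.5 in fresh TE, 43.5, 44.2, 17.1 and 18.4 in fixed frozen tissue and 21.3, 0, 0 and 0 in paraffin. DG had 133, 139.6, 166 and 155, 211, 138, 151 and 146, 186, 215, 227 and 312 and 40.7, 80, 71.7 and 109. CA3 had 117, 86.8, 128 and 82, 92.8, 122, 114 and 99.7, 132, 77.6, 70.5 and 152 and 41.4, 70.5, 41.8 and 125. In every condition all CA1 replicates were below all CA3 and DG replicates. CA1 differed from DG by -2.61 ± 0.26 (adjusted p = 3.49e-10), -2.02 ± 0.21 (adjusted p = 2.84e-09) and -2.83 ± 0.35 (adjusted p = 3.03e-13) in the first 3 conditions. In paraffin, where CA1 held 1 UMI, DG was 14.5-fold (95% exact interval 2.45 to 588) higher (adjusted p = 0.00795). CA1 differed from CA3 by -2.15 ± 0.27 (adjusted p = 1.28e-06), -1.47 ± 0.19 (adjusted p = 7.44e-06) and -1.61 ± 0.48 (adjusted p = 0.0166). CA3 was in turn below DG in every replicate of the first 3 conditions, with a call in fixed frozen tissue at -1.20 ± 0.28 (adjusted p = 0.000526) and, with the replicate block, at -0.48 ± 0.14 (adjusted p = 0.00686) in fresh HCl and -0.52 ± 0.15 (adjusted p = 0.00543) in fresh TE. The fixed frozen call against CA3 was lost without CA1 replicate 3 or CA3 replicate 1 or 4 (then -1.49 to -1.37), and the paraffin call without CA1 replicate 3 (then -3.08). Without CA1 replicate 1, which held the only UMI of CA1 in paraffin, the fitted difference from DG went from -3.58 to -5.87, a value that depends on 0 UMIs in CA1 and is no bound.

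Pcdh10 (chr3:45378398-45435623), a delta-2 protocadherin also called OL-protocadherin, was lowest in DG in fresh tissue. Its CPM in DG were 131, 107, 136 and 184 in fresh HCl and 93.5, 97.1, 129 and 119 in fresh TE. CA1 had 229.8, 184, 216 and 126 and 186, 209, 184 and 159. CA3 had 206, 196, 206 and 209 and 190.1, 185, 187 and 213. CA3 separated from DG in both conditions, whereas CA1 overlapped DG in fresh HCl. CA3 exceeded DG by 0.62 ± 0.17 (adjusted p = 0.0158) and 0.87 ± 0.17 (adjusted p = 0.00087), and CA1 exceeded DG by 0.55 ± 0.20 (adjusted p = 0.0477) and 0.79 ± 0.18 (adjusted p = 0.00159). In fresh HCl the call of CA1 over DG was lost without CA1 replicate 1, 2 or 3 or DG replicate 1, 2 or 3 (then 0.42 to 0.58), and that of CA3 over DG without DG replicate 2 (then 0.51). DESeq2 did not call CA1 over DG there (adjusted p = 0.123). In fixed frozen and paraffin tissue the 3 regions overlapped.

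Pcdh17 (chr14:84443563-84539002), a delta-2 protocadherin known from presynaptic assembly in corticobasal circuits, was highest in DG. Its CPM in DG were 284, 403, 270.3 and 297 in fresh HCl, 291, 436, 250 and 333 in fresh TE and 291, 241, 161 and 184 in fixed frozen tissue. CA3 had 138, 169, 124 and 107, 143, 168, 195 and 117 and 81.5, 49.4, 15.7 and 133. CA1 had 135, 185, 207 and 62.9, 147, 146, 181 and 162 and 159, 210.1, 102 and 92.2. DG was above CA3 in every replicate of these conditions and above CA1 in both fresh ones. CA3 differed from DG by -1.20 ± 0.17 (adjusted p = 4.13e-05), -1.01 ± 0.18 (adjusted p = 0.000227) and -1.88 ± 0.32 (adjusted p = 2.96e-07), and CA1 from DG by -0.97 ± 0.20 (adjusted p = 0.000472) and -1.02 ± 0.17 (adjusted p = 4.01e-05). In fixed frozen tissue CA1 was higher than CA3, at 1.31 ± 0.38 (adjusted p = 0.0139), although their replicates overlapped and the call was lost without CA1 replicate 2 or CA3 replicate 2 or 3 (then 0.88 to 1.18).

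Pcdh19 (chrX:133582860-133688987), the X-linked delta-2 protocadherin, was lower in CA3 than in DG. Its CPM in DG were 182, 293, 272 and 264 in fresh HCl, 283, 351, 322 and 319 in fresh TE and 104, 146, 202 and 128 in fixed frozen tissue. CA3 had 174, 167, 129.6 and 129, 240.2, 198, 189 and 231 and 102, 70.6, 109.6 and 0. CA1 had 119, 192, 138 and 126, 268, 303, 213 and 310.3 and 159, 166, 162 and 221. CA3 lay below DG without overlap in fresh tissue, and 1 CA3 replicate overlapped DG in fixed frozen tissue. CA3 differed from DG by -0.73 ± 0.17 (adjusted p = 0.00494), -0.53 ± 0.15 (adjusted p = 0.0302) and -0.90 ± 0.31 (adjusted p = 0.0428). CA1 was below DG in fresh HCl, at -0.80 ± 0.19 (adjusted p = 0.00226), and above CA3 in fixed frozen tissue, at 1.07 ± 0.35 (adjusted p = 0.0333). The call of CA3 below DG was lost without CA3 replicate 2 or 3 or DG replicate 2, 3 or 4 (then -0.53 to -0.47) in fresh TE and without CA3 replicate 2 or 4 or DG replicate 2 or 3 (then -0.93 to -0.67) in fixed frozen tissue. That of CA1 above CA3 was lost without CA1 replicate 2, 3 or 4 or CA3 replicate 2 or 4 (then 0.83 to 1.11).

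Pcdh20 (chr14:88464743-88471396), a non-clustered protocadherin outside the delta groups, was lower in CA1 than in DG in all 4 conditions. Its CPM in CA1 were 181, 141, 136 and 165 in fresh HCl, 152, 126, 155 and 86.3 in fresh TE, 116, 60.8, 111 and 129 in fixed frozen tissue and 21.3, 54, 155 and 27.8 in paraffin. DG had 233, 293, 293 and 276, 242, 257, 223 and 214, 238, 234, 280.5 and 294 and 40.7, 213, 233 and 280.1. The groups were apart in the first 3 conditions, and in paraffin 1 DG replicate, at 40.7, fell within the range of CA1. The differences were -0.84 ± 0.18 (adjusted p = 0.000691), -0.80 ± 0.17 (adjusted p = 0.0012), -1.50 ± 0.28 (adjusted p = 4.24e-06) and -1.31 ± 0.40 (adjusted p = 0.0376). The paraffin call was lost without CA1 replicate 1, 2 or 4 or DG replicate 2, 3 or 4 (then -1.20 to -1.03), with DESeq2 (adjusted p = 0.313) and with factors from abundant genes, at -1.14 (adjusted p = 0.112), and without CA1 replicate 3 the difference was -2.31. CA3 lay between, at 198 ± 19 CPM in fresh HCl and 184 ± 27.8 in fresh TE (SD, n = 4). With the replicate block CA3 was also called below DG in fresh HCl, at -0.45 ± 0.12 (adjusted p = 0.00176), and CA1 below CA3 in fresh TE, at -0.48 ± 0.14 (adjusted p = 0.0166).

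**Figure D2:**
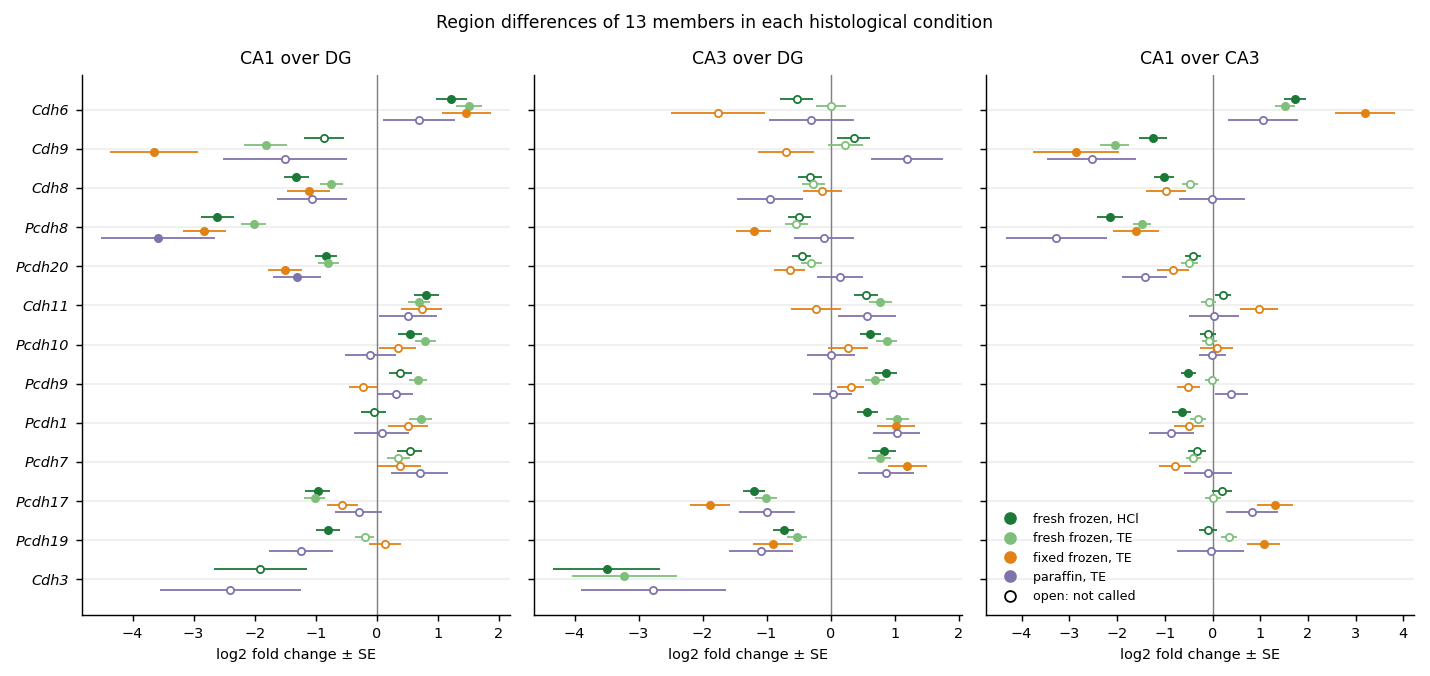
Log2 fold change ± SE (bars) of the 13 members for each pair of regions, by condition in colour; filled points were called (edgeR, adjusted p under 0.05), open points were tested and not called, and comparisons with a region at 0 UMIs are not drawn. Cdh6 lay to the right of 0 and Pcdh8 to the left of 0 for CA1 over DG and for CA1 over CA3 in all 4 conditions; the values of Cdh9 and Pcdh8 whose groups hold 1 or 2 UMIs depend on those few UMIs.

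The replicate number was used as a block where same-numbered replicates deviated together, which was the case in all 3 pairs of fresh TE and in CA3 and DG of fresh HCl; it was run elsewhere as an alternative. With the block, 12 members were called between CA3 and DG in fresh HCl in place of 7 and 12 in place of 8 in fresh TE, and 7 in place of 4 between CA1 and CA3 in fresh TE. The gains beyond those named above included Cdh10, higher in CA3 than in DG in fresh TE at 1.03 ± 0.27 (adjusted p = 0.00162) and lower in CA1 than in CA3 at -0.77 ± 0.24 (adjusted p = 0.0263). Cdh12 was lower in CA3 than in DG of fresh HCl, at -0.55 ± 0.13 (adjusted p = 0.000394), and lower in CA1 than in DG of fresh TE, at -0.40 ± 0.13 (adjusted p = 0.0244). The beta protocadherins Pcdhb7 and Pcdhb9 were lower in CA3 than in DG of fresh TE, at -0.72 ± 0.24 (adjusted p = 0.0221) and -1.11 ± 0.36 (adjusted p = 0.0196), and Cdh24 was higher in CA3 of fresh HCl at 1.77 ± 0.50 (adjusted p = 0.00405).

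A further 9 members were called for a pair of regions in 1 condition only. Cdh10, a type II cadherin, had 53.4, 73.8, 69 and 55 CPM in CA1 of fresh HCl, 32.2, 31.1, 39.5 and 16.4 in CA3 and 17, 24.8, 29.2 and 16.8 in DG. CA1 was above both, by 1.43 ± 0.28 (adjusted p = 0.000262) over DG and 1.03 ± 0.25 (adjusted p = 0.00682) over CA3. In fresh TE the CPM of Cdh10 in CA1 were 17.2, 34.6, 25.7 and 10.8, and those in CA3 were 22.1, 50.4, 56.8 and 25.4, so that CA3 had the higher mean, 38.7 against 22.1, with overlap.

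Cdh12, a type II cadherin of brain, was lower in CA1 than in DG in fresh HCl, at 69.8, 108, 95.5 and 70.7 against 233, 168, 178 and 172 CPM, by -1.08 ± 0.20 (adjusted p = 0.000127). Cdh20, a type II cadherin, had 20.5, 18, 18.4 and 47.1 CPM in CA1 and 5.68, 3.1, 6.35 and 12.6 in DG of fresh HCl, a difference of 1.79 ± 0.49 (adjusted p = 0.00861). Pcdh15, the protocadherin of hair-cell tip links, had 73.9, 60.6, 57.5 and 94.3 CPM in CA1 and 36.9, 31, 27.9 and 25.1 in DG of fresh HCl, a difference of 1.14 ± 0.27 (adjusted p = 0.00224). All 3 pairs of groups were apart, and the call of Cdh20 was lost without DG replicate 2 (then 1.51).

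Cdh13 (T-cadherin), which lacks a cytoplasmic tail and is anchored by a lipid, was higher in CA1 than in DG of fresh TE, at 89.6, 101, 82.4 and 111 against 50.8, 42.6, 68.8 and 61.1 CPM and by 0.80 ± 0.21 (adjusted p = 0.00947), a call lost without DG replicate 2 (then 0.67). Cdh2 (N-cadherin), the main classical cadherin of synapses, differed between regions in fixed frozen tissue. CA3 had 143, 254, 250.5 and 303 CPM, CA1 had 130.4, 105, 102 and 203 and DG had 142, 114, 124 and 91.7. CA3 was above DG in every replicate, by 0.98 ± 0.26 (adjusted p = 0.00367), and overlapped CA1, from which it differed by -0.94 ± 0.29 (adjusted p = 0.0266) with CA1 the lower. This last call was lost without CA1 replicate 2 or 3 or CA3 replicate 2, 3 or 4 (then -0.92 to -0.80).

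Cdh24, a type II cadherin, had 12.9, 17.1, 18.5 and 10.9 CPM in CA3 of fresh HCl and 0, 4.92, 2.3 and 0 in CA1, without overlap and with a difference of -2.76 ± 0.60 (adjusted p = 0.00226). In paraffin 12 UMIs in CA3 against 1 in DG gave 21.3-fold (95% exact interval 3.16 to 912) more Cdh24 in CA3 (adjusted p = 0.0234), a call lost without DG replicate 1 or 3 (then 3.14 to 3.41). Cdh18, a type II cadherin of few UMIs, had 10 in CA1 of fresh HCl and 0 in CA3, at least 4.86-fold higher with 3 counts as the limit (adjusted p = 0.0163). DESeq2 gave Cdh18 no adjusted p there. Pcdhb2, of the beta cluster, had 18.4, 27.1, 23 and 18.9 CPM in CA1 of fresh TE and 1.47, 8.1, 11.8 and 7.82 in CA3, apart in every replicate and different by 1.50 ± 0.39 (adjusted p = 0.0188). That call was lost without CA1 replicate 2 or CA3 replicate 1 or 2 (then 1.23 to 1.51).

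Whether a region difference itself changed with the condition was tested by interaction against fresh TE, and few members passed. In fresh HCl the call was of Cdh10, with the log2 difference of CA1 from CA3 higher by 1.83 ± 0.41 than in fresh TE (adjusted p = 0.0189). CA1 had the higher mean in fresh HCl and CA3 in fresh TE, and the call was lost without replicate 2, 3 or 4 (then 1.68 to 1.96). In fresh HCl, members called numbered 1 of 54 for CA1 over CA3, where 0.516% of all genes were called, and 0 of 56 and 0 of 55 for CA1 over DG (1.41%) and CA3 over DG (0.102%), with 12 and 2 members at an unadjusted p under 0.05 in edgeR and 0 and 0 called by DESeq2. With the replicate block, Cdh13 and Pcdh1 were called for CA1 over DG, at -0.998 ± 0.283 (adjusted p = 0.0197) and -0.78 ± 0.24 (adjusted p = 0.0352). In fixed frozen against fresh TE tissue 0 members were called in each of the 3 pairs, where 0.35%, 0.341% and 0.335% of all genes were called for CA1 over DG, CA3 over DG and CA1 over CA3. There 5, 10 and 8 members had an unadjusted p under 0.05 in edgeR, and DESeq2 called 0, 1 and 0. The member called by DESeq2 was Cdh2, whose log2 difference of CA3 from DG was higher in fixed frozen tissue by 1.39 ± 0.34 (adjusted p = 0.00698). It was also called with the replicate block, at 1.23 ± 0.33 (adjusted p = 0.0291), and with factors from abundant genes, at 1.34 ± 0.35 (adjusted p = 0.0444). Its means in CA3 and DG were 53.1 and 64.6 CPM in fresh TE and 237.6 and 117.8 CPM in fixed frozen tissue. The block called Pcdh9 for CA1 over DG, at -0.95 ± 0.25 (adjusted p = 0.0333).

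Cdh13 was the member called between paraffin and fresh TE. Its CPM in paraffin were 0, 18, 14.1 and 27.8 in CA1, 16.6, 0, 0 and 0 in CA3 and 74.6, 44.5, 44.8 and 31.1 in DG, from 3, 2 and 28 UMIs. In fresh TE, DG had the lowest mean of the 3 regions, 55.8 CPM, whereas in paraffin its replicates were above every CA1 and CA3 replicate. The difference of CA1 from DG was lower in paraffin by an interaction of -2.76 ± 0.77 (adjusted p = 0.0422), and that of CA3 from DG by -3.34 ± 0.85 (adjusted p = 0.0313), where 0.947% and 0.405% of all genes were called. DESeq2 called neither. The first call was lost without replicate 1, 2, 3 or 4 (then -3.06 to -2.11) and the second without replicate 2, 3 or 4 (then -3.31 to -2.68). Without replicate 1, which held both UMIs of CA3 in paraffin, the fitted second value was -7.32, which depends on 0 UMIs in CA3 and is no bound. For CA1 over CA3 in paraffin 0 of 53 members were called (0.433% of all genes), with 1 at an unadjusted p under 0.05 and 0 by DESeq2.

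The clustered protocadherins are read through their 3′ ends, and the UMIs assigned to genes of the 3 clusters differed widely. All 21 beta genes had at least 10 UMIs in total, from 38 to 513. Only 1 of 12 alpha genes did, with a highest total of 12, and 7 of 20 gamma genes, with a highest total of 284 for Pcdhga12. Beta genes are each a single exon with its own end, whereas alpha and gamma genes join a first exon of their own to constant exons that the whole cluster shares. In the annotation on GRCm38, the last 500 exonic bases of all 12 alpha and all 20 gamma genes lay 100% within exons of other genes, against 0% for 20 of 21 beta genes and for all 34 cadherins and non-clustered protocadherins. The exception was Pcdhb21, whose last 500 bases lay 91% within exons of Pcdhb22. The part of this overlap in the low counts of the alpha and gamma genes was not tested. A read that falls in exons of several genes is by default left uncounted by the counter used.

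**Figure D3:**
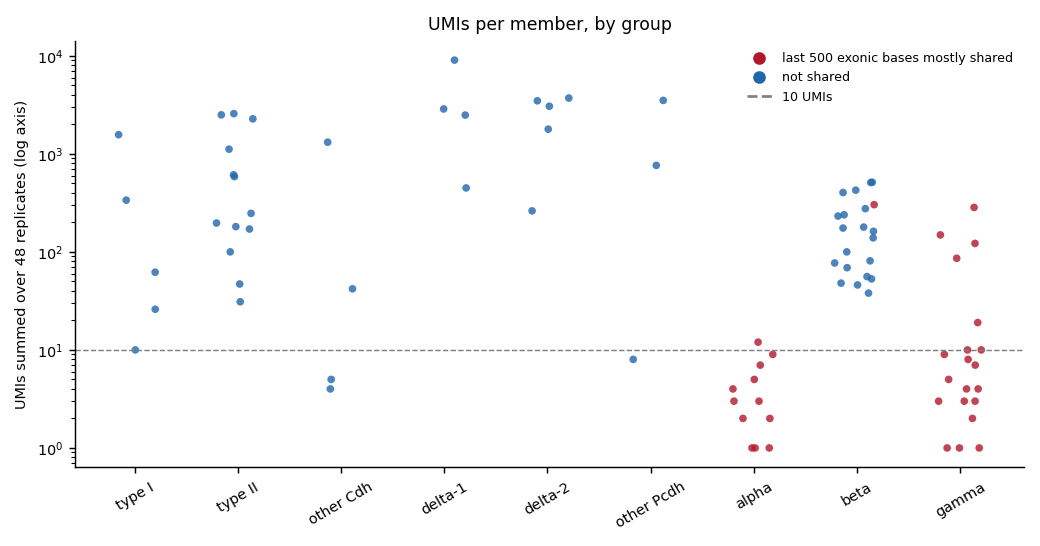
Total UMIs over the 48 replicates of each of the 87 members (points, log axis) by group, with the dashed line at 10 UMIs and red for members whose last 500 exonic bases lie mostly in exons of other genes. The alpha and gamma genes are red and hold most of the points under the line, and no beta gene is under it.

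Summed over the cluster, the beta genes came to 272 ± 34.0, 225 ± 26.6 and 282 ± 42.0 CPM (SD, n = 4) in CA1, CA3 and DG of fresh TE, where the replicates of the 3 regions overlapped although CA3 had the lowest mean. In fixed frozen tissue the beta genes came to 152.9 ± 53.8, 95.9 ± 35.3 and 174 ± 19.4 CPM, and every CA3 replicate (61.1 to 140.9) was below every DG replicate (149 to 193). The gamma genes came to 39.1 ± 10.2, 28.3 ± 8.49 and 37.0 ± 10.9 CPM in CA1, CA3 and DG of fresh TE. They came to 47.9 ± 16.6, 54.3 ± 9.72 and 44.7 ± 13.2 CPM in fresh HCl. In fixed frozen tissue the whole gamma cluster held 0, 2 and 8 UMIs in CA1, CA3 and DG, or means of 0, 4.503 and 9.88 CPM. In paraffin it held 13, 11 and 19 UMIs, which at the lower depth came to 67.6 ± 51.2, 29.5 ± 30.3 and 31.4 ± 23.8 CPM, with ranges that overlapped those of fresh TE in each region. The alpha cluster held 48 of its 50 UMIs in fresh tissue.

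Conditions were compared next, to ask how far the family could be read in fixed and embedded tissue. Of 87 members, the replicates of fresh HCl and fresh TE showed 53.5 ± 6.17 and 56.83 ± 5.70 with at least 1 UMI (mean ± SD, n = 12), and those of fixed frozen and paraffin tissue 30.83 ± 7.31 and 30.0 ± 7.68. When every replicate was thinned to 35932 UMIs, the means were 26.25, 26.92, 20.42 and 22.5 members. At that depth the ranges were 22 to 31, 23 to 30, 14 to 25 and 17 to 27, so that they overlapped, and in both fixed frozen and paraffin tissue the mean was lower than in fresh TE by more than the SD of either group.

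**Figure D4:**
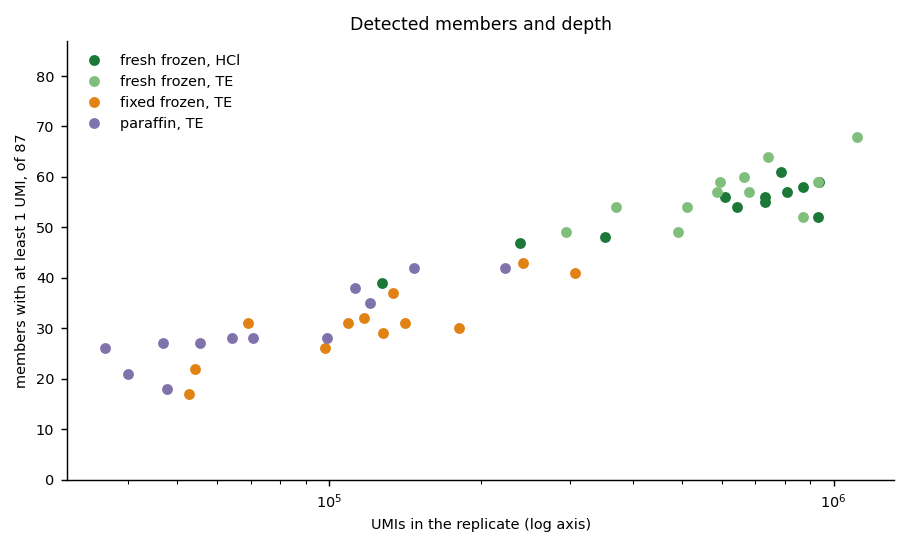
Members with at least 1 UMI, of 87, against the total UMIs of the replicate (log axis), 1 point per replicate, coloured by condition. The number rose with depth from 17 to 68 members, and the fixed and paraffin replicates lie at the shallow end.

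Most members with a call were lower in fixed tissue. In fixed frozen against fresh TE tissue, with region as a covariate and 24 replicates, 29 of 55 members were lower and 3 higher, where 32.9% of all genes were lower and 15.8% higher. The median difference was -0.72 for the members and -0.39 for all genes. When the scaling factors were computed from abundant genes alone, an alternative chosen after seeing the data, 21 members were lower and 5 higher with an all-gene median of -0.16, and the calls of Cdh3, Cdh6, Cdh8, Pcdh1, Pcdh7, Pcdh10, Pcdh11x and Pcdhb17 were lost. Of the 32 calls, 30 had the same sign in all 3 regions. Markers of some other cell types were lower too, 4 of 6 of astrocytes, 5 of 6 of oligodendrocytes, 5 of 6 of endothelium and 6 of 6 of mural cells and fibroblasts. The summed astrocyte level was 2402 to 5217 CPM over the fresh TE replicates and 379 to 1286 over the fixed frozen ones, and the mural and fibroblast level 164 to 445 and 0 to 134. The summed oligodendrocyte level had means of 7393, 6577 and 2897 CPM in CA1, CA3 and DG of fresh TE. In fixed frozen tissue its means were 9876, 4533 and 2245 CPM, higher in CA1 and lower in CA3 and DG. Interneuron markers summed to means of 1040, 923.5 and 745.1 CPM in fresh TE and 1148, 731.8 and 1023 in fixed frozen tissue. The part of these cell types in the lower levels of the members was not tested.

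Cdh2 went against the family. Its CPM in fresh TE were 40.2, 61.8, 40.5 and 54 in CA1, 45.7, 64.8, 49.3 and 52.8 in CA3 and 67.1, 76.7, 70.5 and 44.1 in DG. In fixed frozen tissue they were the higher values given above, in every replicate of every region. The difference was 1.39 ± 0.16 (adjusted p = 5.32e-12), the smallest p of any member. Paraffin was higher than fixed frozen tissue, at 363, 234, 226 and 223, 422, 171, 146 and 326 and 169.5, 213, 224 and 124 CPM in CA1, CA3 and DG and by 0.50 ± 0.18 (adjusted p = 0.0236). In fresh HCl the difference from fresh TE was 0.40 ± 0.13 (adjusted p = 0.0142). The other members called higher in fixed frozen tissue were of the beta cluster and had few UMIs there. Pcdhb6, with 12, differed by 1.27 ± 0.55 (adjusted p = 0.0457), and leaving out any one of 15 of the 24 replicates lost its call. Pcdhb13, with 11, differed by 1.62 ± 0.63 (adjusted p = 0.0266), although CA3 had 0, and leaving out any one of 4 of the 24 replicates lost its call (then 1.13 to 1.54).

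Several members with many UMIs fell moderately. Pcdh9 differed by -0.95 ± 0.12 (adjusted p = 3.51e-10), Pcdh19 by -1.08 ± 0.14 (adjusted p = 5.16e-10), Cdh11 by -0.88 ± 0.16 (adjusted p = 2.23e-06) and Pcdh17 by -0.65 ± 0.15 (adjusted p = 0.000276) in fixed frozen against fresh TE tissue. Not every abundant member fell, since Pcdh20 and Pcdh8, with 3509 and 1784 UMIs in total, were not called. With factors from abundant genes Pcdh8 was called higher in edgeR, at 0.40 ± 0.16 (adjusted p = 0.0302). Larger falls than those of Pcdh9, Pcdh19, Cdh11 and Pcdh17 were seen in members of the beta cluster and in Pcdh15. Pcdhb7 went from 272 to 13 UMIs and by -2.30 ± 0.35 (adjusted p = 2.54e-08). Pcdh15 went from 338 to 15 UMIs and by -2.21 ± 0.34 (adjusted p = 3.18e-08). Pcdhb2, at 107 UMIs in fresh TE and 4 in fixed frozen tissue, differed by -2.40 ± 0.55 (adjusted p = 0.000152).

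Some members were at or near 0 in fixed frozen tissue. Pcdhb21 had 184 UMIs in fresh TE and 2 in fixed frozen tissue, 19.2-fold (95% exact interval 5.23 to 159) more by pooled CPM in fresh TE (adjusted p = 2.37e-09). Pcdhga12 had 99 and 1, 20.6-fold (95% exact interval 3.62 to 822) more (adjusted p = 1.26e-06), and Pcdh18 had 116 and 2, 12.1-fold (95% exact interval 3.27 to 101) more (adjusted p = 2.57e-06). Pcdhgc5 had 53 and 0, which is at least 3.68-fold with 3 counts as the limit (adjusted p = 0.000413). Cdh5 (VE-cadherin), the cadherin of endothelial junctions, differed by -2.12 ± 0.62 (adjusted p = 0.00293), with 4 UMIs in fixed frozen tissue. Without replicate 4 of DG in fixed frozen tissue the fitted value was -3.65, which rests on the few UMIs left and is no bound. Of the endothelial markers, 5 of 6 were also lower in fixed frozen tissue. Their summed level was 225 to 362 CPM over the fresh TE replicates and 18.9 to 186 CPM over the fixed frozen ones, and its part in the fall of Cdh5 was not tested.

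Fewer members differed between the HCl and TE steps in fresh tissue. In fresh HCl against fresh TE, 13 of 60 members were lower and 5 higher, where 14.3% of all genes were lower and 16.2% higher and the median of all genes was 0.10. With scaling from abundant genes the median of all genes was 0.22, and 6 members were lower and 6 higher. Of the 18 calls, 14 had the same sign in all 3 regions. Same-numbered replicates of the 2 conditions deviated together in CA3 and in DG, and with the replicate block Pcdh17 was also called lower, at -0.24 ± 0.10 (adjusted p = 0.046). Pcdhb2 changed most among those that fell, by -1.98 ± 0.33 (adjusted p = 3.82e-06), with means of 2.43, 3.07 and 3.73 CPM in CA1, CA3 and DG of fresh HCl against 21.8, 7.30 and 11.85 in fresh TE. Pcdhb21 changed by -0.80 ± 0.19 (adjusted p = 0.00081), Pcdh19 by -0.71 ± 0.11 (adjusted p = 5.08e-07), Cdh6 by -0.61 ± 0.14 (adjusted p = 0.000482) and Cdh11 by -0.47 ± 0.10 (adjusted p = 0.000197).

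Among members higher in fresh HCl, Cdh24 changed by 1.71 ± 0.45 (adjusted p = 0.00217), Pcdhgc4 by 0.95 ± 0.32 (adjusted p = 0.0176) and Cdh5 by 0.74 ± 0.26 (adjusted p = 0.0215). Cdh24 had 65 UMIs in fresh HCl and 16 in fresh TE. Its mean went from 2.60 to 14.9 CPM in CA3 and from 0.839 to 5.28 in DG, but only from 1.68 to 1.81 in CA1. Beside Cdh5, 4 of 6 endothelial markers and 4 of 6 mural and fibroblast markers were also higher, with a summed endothelial level of 267 to 536 CPM over the fresh HCl replicates against 225 to 362 in fresh TE. Their part in the rise of Cdh5 was not tested.

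Paraffin against fixed frozen tissue, both fixed with PFA and both treated with TE, gave 8 members higher and 5 lower of 46, where 13.7% of all genes were higher and 14.4% lower and the median was 0.05. DESeq2 called 5 higher and 3 lower, and scaling from abundant genes called 13 higher and 3 lower with an all-gene median of 0.37. Of the 13 calls, 11 had the same sign in all 3 regions. Pcdh8 fell from means of 30.8, 108 and 235 CPM in CA1, CA3 and DG to 5.34, 69.8 and 75.3, a difference of -1.52 ± 0.26 (adjusted p = 2.36e-07). Pcdh19 differed by -1.03 ± 0.24 (adjusted p = 0.000211) and Cdh8 by -0.92 ± 0.26 (adjusted p = 0.0032). Pcdh15 rose from 6.74, 2.55 and 12.1 CPM to 70.8, 26.3 and 50.3, by 2.16 ± 0.45 (adjusted p = 3.39e-05), and stood against 40.04, 47.2 and 36.4 CPM in fresh TE. Cdh3 had 19 UMIs in paraffin against 1 in fixed frozen tissue, 29.2-fold (95% exact interval 4.64 to 1212) more by pooled CPM (adjusted p = 0.000214), and Pcdhga12 had 11 against 1, 16.9-fold (95% exact interval 2.46 to 727) more (adjusted p = 0.00204). All 6 oligodendrocyte markers were higher in paraffin too, with a summed level of 5555 to 21472 CPM over its replicates against 1789 to 15762 in fixed frozen tissue. In DG, the summed level of choroid plexus and ependyma markers was 22.4 to 28.9 CPM in fixed frozen tissue and 44.8 to 8928 CPM in paraffin. In CA1 and CA3 its means were 20.8 and 755 CPM in fixed frozen tissue and 196 and 730 CPM in paraffin. The part of both sets of markers in these differences was not tested.

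**Figure D5:**
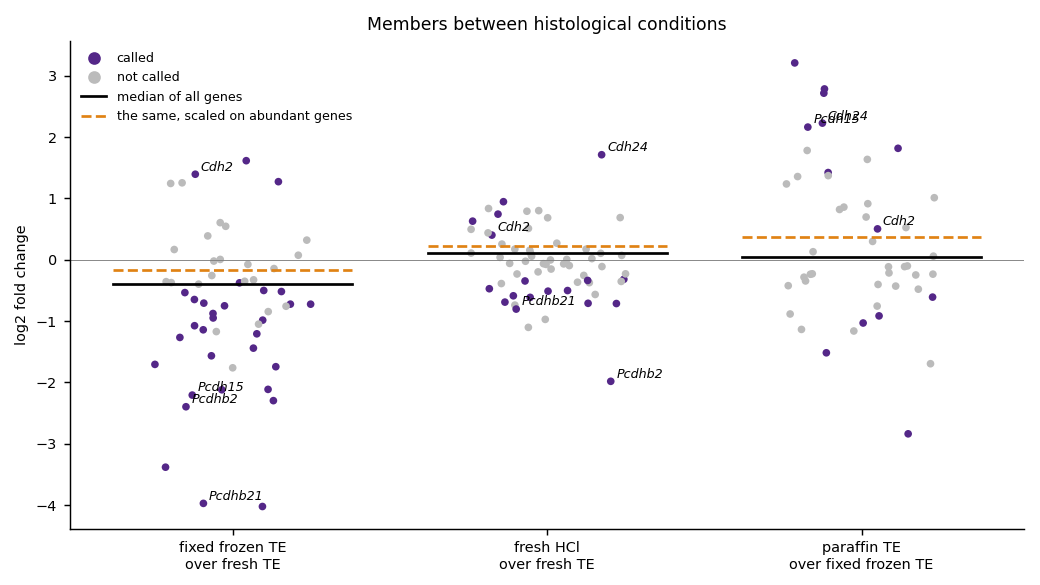
Log2 fold change of each member (points) between conditions, with called members in purple; the black line is the median of all genes and the dashed orange line the same median with factors from abundant genes. Members with 0 UMIs in a condition (1 of 55 in the first comparison) are not drawn. Most called members lay below 0 in fixed frozen against fresh TE tissue, whereas Cdh2 lay above 0 in all 3 comparisons.

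The partners of the family were followed through lists of catenins, processing enzymes, cytoskeletal effectors and other cadherin-like receptors, where the shares of all genes called are those given above. Catenins (10 of 11 listed genes were in the table) were called little between regions. In fresh HCl, 0 of 10 differed between CA1 and DG (2 at an unadjusted p under 0.05), 1 was higher in CA3 than in DG and 1 was higher in CA1 than in CA3. In fresh TE, 1 was higher in CA1 and 1 in CA3 than in DG. Pkp4, a catenin-like protein of cell junctions, was higher in CA3 than in DG by 0.48 ± 0.15 in fresh HCl and 0.60 ± 0.17 in fresh TE (adjusted p = 0.0409 and 0.0219).

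Of 12 processing enzymes and membrane partners, 2 were higher and 2 lower in CA1 than in DG in fresh HCl, and 3 were higher and 0 lower in CA3 than in DG in fresh TE. Nectin3, an immunoglobulin-like adhesion receptor that works beside cadherins, was the most uneven, lower in CA1 than in CA3 by -2.77 ± 0.20 (adjusted p = 2.02e-11), -2.39 ± 0.20 (adjusted p = 3.33e-09) and -2.53 ± 0.36 (adjusted p = 1.18e-09) in fresh HCl, fresh TE and fixed frozen tissue. It was higher in CA3 than in DG by 1.59 ± 0.17 (adjusted p = 8.6e-07), 1.52 ± 0.19 (adjusted p = 1.32e-06) and 2.40 ± 0.30 (adjusted p = 4.39e-13). Adam10, a protease that sheds cadherin ectodomains, stood higher in CA1 than in DG, by 0.61 ± 0.22 (adjusted p = 0.0489) in fresh HCl and 0.67 ± 0.20 (adjusted p = 0.029) in fresh TE.

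Of 13 genes of the WAVE complex and related effectors, 1 was higher and 1 lower in CA1 than in DG of fresh HCl, and 1 was higher in fresh TE. Brk1, a small WAVE subunit, stood higher in CA1 than in DG, by 0.85 ± 0.23 (adjusted p = 0.0103) in fresh TE and 0.81 ± 0.23 (adjusted p = 0.0101) in fixed frozen tissue. Of 8 regulators of the protocadherin clusters, 1 was lower in CA1 than in DG in fresh HCl, Smc1a of the cohesin ring, at -0.94 ± 0.23 (adjusted p = 0.00346). Among 24 other members of the cadherin superfamily, 15 were tested between CA1 and DG in fresh HCl, 1 higher and 5 lower. Clstn2 (calsyntenin-2), a synaptic protein, was lower in CA1 than in CA3 in all 4 conditions, by -1.10 ± 0.17 (adjusted p = 2.2e-05), -1.85 ± 0.18 (adjusted p = 5.17e-08), -1.64 ± 0.27 (adjusted p = 1.15e-07) and -1.57 ± 0.43 (adjusted p = 0.0181). Dsg2, a desmosomal cadherin, was lower than in DG in CA1 by -2.31 ± 0.50 (adjusted p = 0.000813) and -2.38 ± 0.50 (adjusted p = 0.000939) and in CA3 by -2.23 ± 0.40 (adjusted p = 0.000426) and -2.28 ± 0.49 (adjusted p = 0.00239) in fresh HCl and fresh TE.

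Between conditions these lists moved as follows. In fixed frozen against fresh TE tissue, 1 catenin was higher and 4 lower of 10, 1 processing or partner gene was higher and 9 lower of 12, 4 effectors were higher and 4 lower of 13, 5 cluster regulators were lower of 8, and 1 other superfamily member was higher and 4 lower of 15. Brk1 was higher in fixed frozen tissue, by 1.29 ± 0.14 (adjusted p = 4.4e-13), and lower in paraffin than in fixed frozen tissue, by -1.38 ± 0.20 (adjusted p = 1.78e-09). Psenen, a subunit of gamma-secretase, which cleaves cadherins after shedding, was higher in fixed frozen tissue by 3.77 ± 0.39 (adjusted p = 5.45e-14). In fresh HCl against fresh TE, 2 catenins were higher and 4 lower, 4 partners higher and 5 lower, 4 effectors higher and 5 lower, 5 regulators lower, and 6 superfamily members higher and 1 lower of 16. In paraffin against fixed frozen tissue, 3 catenins were higher and 3 lower, 1 partner higher and 2 lower, 1 effector higher and 8 lower, 2 regulators lower, and 2 superfamily members higher and 2 lower of 12.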

How the data were processed

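Tissue from 12 photo-isolated groups was counted in 48 barcoded replicates. The authors took barcode and UMI (6 bases each) from the reads through UMI-tools 1.0.0, trimmed by Trim Galore!, mapped to GRCm38 through HISAT2 2.1.0, assigned by featureCounts 1.6.4 and deposited raw UMI counts per gene and replicate, without normalization. The annotation release is not given in the sources used here. A separate list of barcode sequences was not used.

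Here CPM are UMIs scaled to a total of 1000000 per replicate. Regions within a condition (8 replicates), conditions (24 replicates, region as covariate) and interactions against fresh TE (16 replicates) were tested with edgeR 4.0.16 quasi-likelihood fits in R 4.3.3 (TMM, at least 10 UMIs summed, Benjamini-Hochberg over all genes, two-sided). Ratios with 1 to 3 UMIs in a group carry exact 95% intervals, and 3 counts stand for a group at 0; both cover counting error only. Members called in the same direction for a pair in at least 2 conditions were described in full, and those called once, or between conditions, by fold change, without exceeding about 20 names. The members and lists were chosen with earlier results of these data known. Alternatives were DESeq2 1.42.0, its size factors, no filter, filterByExpr, all 12 replicates of a condition, thinning to 35932 UMIs, leaving out each replicate, the replicate number as a block and, chosen after seeing the data, TMM factors from the abundant genes (mean of 20 UMIs or more). Same-numbered replicates deviated together (every correlation over 0.1) in 4 of 12 library pairs of a condition and 2 of 18 of a region; the barcodes, which are the same in every library, carry the numbers. Scripts were tested on simulated data. Promoters are from RefSeq on GRCm38.p6, and gene positions and the overlap of 3′ ends from GENCODE M21 on GRCm38. Python 3.11.15 with pandas 2.3.3, numpy 2.4.6, scipy 1.17.1 and matplotlib 3.10.9 was used.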

Additional observations from a re-analysis of the deposited data

Results flagged for a closer look

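A replicate stood far from the other 3 in 4 of 108 groups with at least 40 UMIs, judged by the gap to the nearest replicate as a share of the range of the group (above Dixon's 95% critical value), where chance gives about 1 group in 20. Pcdh19 in CA1 of fixed frozen tissue had 221.4 CPM in replicate 4, against 165.9 for the nearest (share 0.895). Pcdh7 in CA3 of fixed frozen tissue had 75.76 CPM in replicate 4, against 172.2 (share 0.895). Pcdh8 in CA1 of fresh TE tissue had 35.6 CPM in replicate 1, against 40.47 (share 0.961), in a group whose whole range was narrow. Pcdh9 in DG of paraffin tissue had 108.9 CPM in replicate 4, against 244.1 (share 0.869).

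The region difference of a member changed with the condition in 3 tests. For Cdh10 the log2 difference of CA1 from CA3 was higher in fresh HCl than in fresh TE by an interaction of 1.834. The order was opposite, with the higher mean in CA1 in fresh HCl and in CA3 in fresh TE. For Cdh13 the difference of CA1 from DG was lower in paraffin than in fresh TE by an interaction of -2.758, and that of CA3 from DG by -3.339, with 3 UMIs in CA1 and 2 in CA3 of paraffin tissue. The part of these low counts and of the single library per group was not tested.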

How the results depend on the processing

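Of the called fold changes, most kept their direction and call under each alternative other than thinning: 112 of 138 with DESeq2 (18 lost, 7 without an adjusted p, 1 reversed), 131 with its size factors (7 lost), 116 with TMM from abundant genes (22 lost), 125 with no filter (13 lost) and 134 with the replicate block (4 lost). With filterByExpr 90 of the 98 still tested kept their call, and the rest of the 138 were not tested. With all 12 replicates 69 of the 72 region calls were kept. Thinning to 35932 UMIs, which removes most UMIs of fresh tissue, kept 20, lost 83 and reversed 4, and the rest were not tested. Reversed values were Pcdh10 fixed frozen over fresh TE (0.0085) and, in fresh HCl over fresh TE, Cdh11 (0.12), Pcdh8 (0.33) and Pcdhb9 (0.19) with thinning, and Cdh3 fixed frozen over fresh TE (0.37) with DESeq2, for which the cause was not tested.

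Counts of called members that moved by over 1.5 times are given next, with the order CA1 over DG, CA3 over DG and CA1 over CA3. Thinned, they were 2, 1 and 0 in fresh HCl, 3, 0 and 0 in fresh TE, 2, 0 and 2 in fixed frozen, and 0 and 0 for the first pairs in paraffin, then 8, 0 and 2 for fixed frozen over fresh TE, fresh HCl over fresh TE and paraffin over fixed frozen, and 0 for the 3 interactions with a call. With filterByExpr, which tests fewer genes, they were 5 for CA1 over CA3 in fresh HCl, 2 and 3 for CA1 over DG and CA1 over CA3 in fixed frozen, 0 for CA1 over DG in paraffin, 13 for fixed frozen over fresh TE, 4 for paraffin over fixed frozen and 0 and 0 for the Cdh13 interactions. DESeq2 called 3 and 1 in the same fixed frozen pairs, 0 and 0 for both pairs with DG in paraffin, 8 for paraffin over fixed frozen, 1 (Cdh2) for the fixed frozen interaction of CA3 over DG and 0 and 0 for the Cdh13 interactions. No filter gave 3 for CA1 over CA3 in fixed frozen and 0 for the first Cdh13 interaction. DESeq2 size factors and TMM from abundant genes each gave 1 for CA1 over DG in paraffin, 1 for the fixed frozen interaction of CA3 over DG, and 0 and 0 for the Cdh13 interactions. All 12 replicates gave 1 for CA1 over DG and 1 for CA1 over CA3 in paraffin.

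With the replicate block, 12 were called for CA3 over DG in fresh HCl, 7 for CA1 over CA3 in fresh TE, 1 for CA1 over CA3 in paraffin, and 2, 1 and 1 for the interactions of CA1 over DG in fresh HCl, CA1 over DG in fixed frozen and CA3 over DG in fixed frozen; calls it lost were Cdh24 in paraffin, Cdh3, Cdh19 and Cdh20. The numbers paired the replicates in fresh TE, in CA3 and DG of fresh HCl, and between both fresh conditions in CA3 and in DG, and elsewhere the replicates shared only a number. The mean number of members per replicate was 46.5, 46.5, 20.75 and 21.0 with at least 2 UMIs, and 26.25, 26.92 and 20.42 when thinned in the first 3 conditions.

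Leaving out 1 replicate gave, for CA1 over DG, 11 to 14, 11 to 12, 3 to 5 and 1 to 2 called members in fresh HCl, fresh TE, fixed frozen and paraffin, for CA3 over DG 5 to 9, 7 to 9, 4 to 7 and 0 to 1, and for CA1 over CA3 6 to 9, 3 to 4, 2 to 5 and 0 to 2. The condition comparisons gave 28 to 32, 14 to 18 and 11 to 14, and the interactions 0 to 1 or 0. Of 90 differences of fully described members that were not called, 28 took the other sign and 14 were called under at least 1 alternative. Depth limits fixed frozen and paraffin tissue, where 18 to 29 members could be tested between regions.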
